A study of Mus musculus with 96 samples.

Results

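The cells were mouse embryonic stem cells (line E14) kept in serum/LIF, a medium of serum and leukaemia inhibitory factor, and messenger RNA of single cells was sequenced after it had been parted from the DNA of the same cell by G&T-seq. The labels describe the cells as wild-type with a C57BL/6 background. Of the 61 serum/LIF cells with counts, 12 were Rex1-high, with at least 100 CPM (counts per 1000000 counts of the cell) of Zfp42, the gene that encodes Rex1, and 19 were Rex1-silent, with 0 counts of it. The other 30 cells lay between these limits and entered no test. The series lists 76 serum/LIF wells, 16 wells of 2i cells and 4 empty wells, and the wells other than the 61 cells were not analysed here. No treatment or genotype separates the classes: Zfp42 itself chose them, so its level is a description and was left out of the tested genes.

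Rex1 is a zinc finger protein of the naive state, the ground state of pluripotency that corresponds to the inner cell mass of the blastocyst. Its gene is switched on and off in serum cultures, where Rex1-positive cells resemble the naive epiblast and Rex1-negative cells lie closer to differentiation. Other transcription factors of the naive state, Esrrb and Klf4 among them, are known to vary from cell to cell in the same medium, whereas Pou5f1 (Oct4) is made by both kinds of cell.

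Zfp42 reached 139 CPM in the lowest Rex1-high cell, a median of 1199 CPM and 1755 CPM in the highest, against 0 counts in each Rex1-silent cell. A floor of 3 counts corresponded to 0.447 to 1.19 CPM in the Rex1-silent cells, depending on depth. Just inside the limit lay H09 with 139 CPM and then F07 with 483 CPM, and just outside it lay B01 with 75.2 CPM and F01 with 68.1 CPM. The cells between had a median of 9.24 CPM. Zfp42 lies on chromosome 8 (GRCm38, 8:43295063-43306980), and its promoter window from RefSeq (GRCm38.p6, chr8:43306960-43307259, minus strand) is shown because this gene set the classes. The capitals mark the octamer ATTTGCAT, the kind of site that Oct4 binds, which begins 186 bases before the annotated start (position -186).
Zfp42: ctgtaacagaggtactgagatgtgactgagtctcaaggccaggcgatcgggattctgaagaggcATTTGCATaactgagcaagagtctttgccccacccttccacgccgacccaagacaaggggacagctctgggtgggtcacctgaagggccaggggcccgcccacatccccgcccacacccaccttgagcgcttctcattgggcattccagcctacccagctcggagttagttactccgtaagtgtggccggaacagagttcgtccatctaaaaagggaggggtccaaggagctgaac
This octamer, searched on both strands, stands in 1.74% of 32851 promoter windows of the same length.

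**Figure D1:**
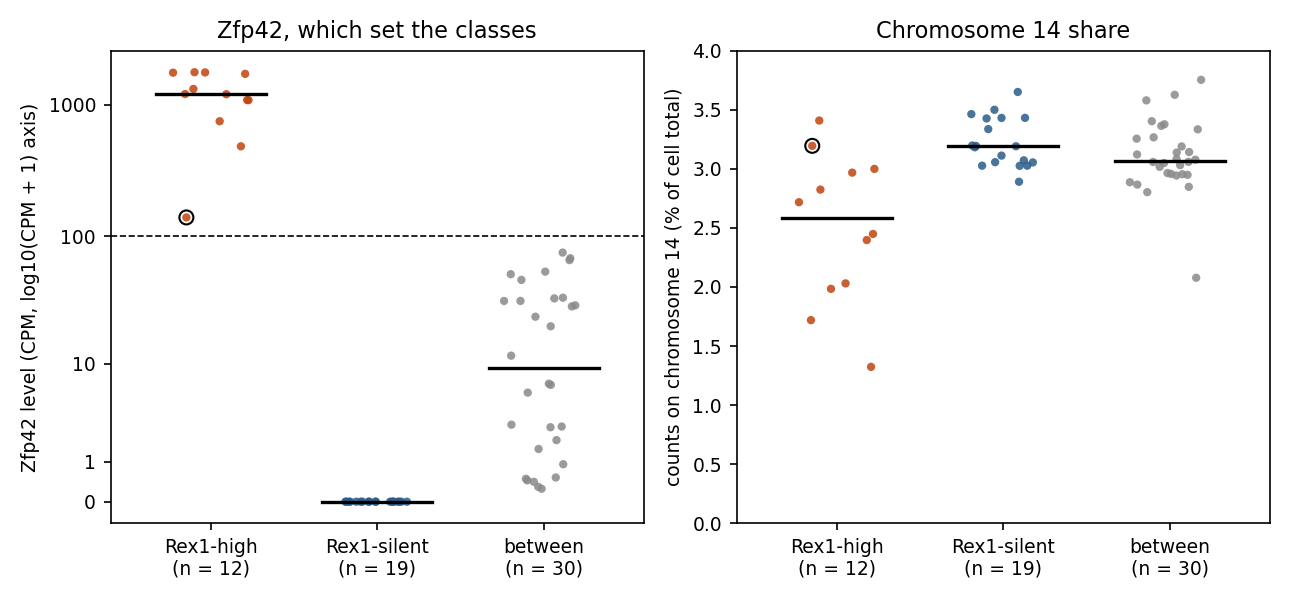
Zfp42 level in CPM (left, on a log10(CPM + 1) axis) and counts on chromosome 14 as a percentage of each cell's total (right), for 12 Rex1-high, 19 Rex1-silent and 30 cells between. Each point is 1 cell, black bars are medians, the dashed line is the limit of 100 CPM and the ring marks H09, which had 139 CPM of Zfp42; the Rex1-high cells reach down to 1.32% on chromosome 14, against a lowest value of 2.89% in Rex1-silent cells.

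Some cells stood apart, on measures taken before any gene was tested or, for H09, on the genes that the test called. Total counts per cell averaged 4057630 in Rex1-high and 4701070 in Rex1-silent cells, and genes detected per cell averaged 7704.5 and 8379.7 (two-sided permutation test over cells, adjusted p = 0.119 for each). Mitochondrial genes took 2.53% ± 0.969 of counts in Rex1-high cells and 2.00% ± 0.638 in Rex1-silent cells (SD, n = 12 and 19, adjusted permutation p = 0.119). Chromosome 14 took 2.50% ± 0.634 and 3.22% ± 0.208 of counts (SD, adjusted permutation p = 0.0004 over 5 measures), and 4 of 12 Rex1-high cells, but 0 of 19 Rex1-silent cells, had less than 0.75 of the median share. Of all cells, F07 had the highest mitochondrial share (4.45%) and B10 the fewest genes (5317), and both were Rex1-high. These are called the 2 cells of lowest quality, though no quality limit was applied. B05, also Rex1-high, was close to F07 with 4.43%. On these measures H09, the Rex1-high cell nearest the limit, lay within the range of the Rex1-silent cells. It had 8403 genes detected and 3.19% of counts on chromosome 14. H09 stood apart on the genes called below, with counts of 11 of the 19 called higher and of 14 of the 40 called lower. The other 11 Rex1-high cells had counts of 18 to 19 and of 3 to 8. Each cell is a sample of its own and the labels name no separate cultures, so p-values measure the spread between cells of 1 culture only.

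With edgeR's quasi-likelihood test, 59 of 8444 genes (0.699%) differed between Rex1-high and Rex1-silent cells, at a Benjamini-Hochberg adjusted p under 0.05 after adjustment for the share of genes detected per cell. Higher in Rex1-high cells were 19 genes (0.225%), and lower were 40 (0.474%). An unadjusted p under 0.05 was found for 693 of the 8444 genes. limma-trend on log2(CPM + 1) called 148 genes higher (1.75%) and 174 lower (2.06%), among them all 19 and 27 of the 40. All 40 were called by DESeq2, as were the 19. A gene was tested where at least 10 of the compared cells had 10 counts, so a gene present in Rex1-high cells alone had to be seen in nearly all of them, and the numbers of higher and lower calls cannot be set against each other.

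The number of calls changed when the cells that stood apart were left out. It changed with other cells too, such as C05 (8 higher and 22 lower without it), and the cause was not tested. Without H09, 40 of 8308 genes (0.481%) were higher and 127 (1.53%) lower, and these held all 59 genes. H09 was singled out on those 59 genes, so their calls without it were partly fixed in advance. The same limit holds for every gene or list below that is given without H09. Without the 4 cells low in chromosome 14, 1 gene was called higher (Mtf2) and 1 lower (Ccn1, named after its value was seen) of 8028. Only 8 Rex1-high cells then remained, H09 among them, so a gene seen in Rex1-high cells alone could not enter that test. No comparison left out both H09 and these 4 cells. Without F07 and B10, 11 were higher and 30 lower. Of the 59 genes, 2 lie on chromosome 14, Rcbtb2 and Pdlim2, both lower. A single gene (0.0118%) separated the classes without overlap, and it is described with the naive genes.

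From the list of naive pluripotency genes, Esrrb and Morc1 were higher in Rex1-high cells. Esrrb encodes an orphan nuclear receptor that sustains self-renewal. Its lowest, median and highest level was 0, 99.3 and 345 CPM in Rex1-high cells, against 0, 0 and 8.95 CPM in Rex1-silent cells. It was detected in 11 of 12 Rex1-high and 3 of 19 Rex1-silent cells, and 10 Rex1-high cells lay above every Rex1-silent cell. Its fitted log2 fold change was 8.32 ± 1.49 (SE, edgeR adjusted p = 0.0051). Morc1, an ATPase that germ cells need to silence transposons, had 0, 222 and 835 CPM in Rex1-high cells, against 0, 0 and 0.397 CPM in Rex1-silent cells. H09, at 0, and F07, at 0.346 CPM, were the Rex1-high cells within the range of the Rex1-silent cells (edgeR log2 fold change 12.39 ± 1.08, adjusted p = 6.42e-09).

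Of the 25 genes on the naive list, 17 were measured, of which 2 rose and none fell by edgeR and 11 rose by limma (Esrrb, Morc1, Dppa5a, Fbxo15, Klf2, Nr0b1, Mybl2, Spp1, Dppa2, Tdh and Zfp57). Over all genes tested, edgeR called 0.225% higher and limma 1.75%. The median log2 fold change of the 17 was 2.82, beside -0.03 over all genes tested. The filter kept only genes seen in many of the compared cells, so this median describes the members kept. Esrrb, Morc1, Klf2, Klf4, Nr0b1 and Fbxo15 no longer passed the filter without the Rex1-high cells low in chromosome 14. These genes thus entered partly through the Rex1-high cells, and the filter partly set their sign. Dppa5a, an RNA-binding protein of pluripotent cells, was the gene whose classes did not overlap. It had 3970.0, 7093 and 10407 CPM in Rex1-high cells, against 0.335, 192 and 3756 CPM in Rex1-silent cells. The 2 tests differed on it (edgeR log2 fold change 2.41 ± 0.92, adjusted p = 0.378; limma adjusted p = 0.0103). Fbxo15, an F-box protein gene long used as a reporter of the pluripotent state, missed the threshold narrowly with a log2 fold change of 7.89 ± 2.02 (edgeR adjusted p = 0.0593), and passed without H09 (adjusted p = 0.018).

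Nanog, the homeodomain factor of the naive network, had 65.7, 369 and 1298 CPM in Rex1-high cells, against 0, 83.1 and 679 CPM in Rex1-silent cells, and its log2 fold change of 1.47 ± 0.96 was within the spread of the cells (edgeR adjusted p = 0.808). The Krüppel-like factors gave log2 fold changes of 3.70 ± 1.56 for Klf2, 2.82 ± 1.50 for Klf4 and 0.59 ± 0.75 for Klf5, none of which passed in edgeR. Tfcp2l1, a target of LIF signalling, had 3.19 ± 1.14 (adjusted p = 0.310), and Nr0b1, a nuclear receptor that lacks a DNA-binding domain, had 5.63 ± 1.62 (adjusted p = 0.122). Mybl2, a cell cycle transcription factor, had 3.42 ± 1.05 (adjusted p = 0.171), and Spp1, which encodes osteopontin, 3.32 ± 1.61 (adjusted p = 0.596). Values for Dppa2 (2.21 ± 1.27), Tdh, the threonine dehydrogenase (2.67 ± 1.28), and Zfp57, which guards imprints (2.62 ± 1.17), did not pass in edgeR. Dppa4 at 1.04 ± 0.78 and the Nodal co-receptor Tdgf1 at 0.04 ± 0.68 passed in neither.

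Besides Morc1, the higher genes held Tdrd12 and Rpl39l, both known from the germline. Tdrd12, a helicase of the piRNA pathway, had 0, 143 and 413 CPM in Rex1-high cells, against 0, 0 and 37.1 CPM in Rex1-silent cells. It was seen in 9 of 12 and 2 of 19 cells (log2 fold change 6.59 ± 1.59, edgeR adjusted p = 0.0379). It was the 1 call among 6 measured members of a list of 21 germline genes known to be silenced by promoter methylation. Of all genes tested 0.225% were called higher. Tex19.1 (5.01 ± 1.55, adjusted p = 0.180) and Rpl10l (2.97 ± 1.47, adjusted p = 0.613) passed in limma only. Of the other 3, Rnf17 had 2.66 ± 1.45, while Ddx4 (-1.88 ± 1.41) and Sycp3 (-1.48 ± 2.193) were on the other side of 0, and none passed.

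Rpl39l, a copy of the ribosomal protein gene Rpl39 that is active in testis, was named after its values were seen because it was at 0 in every Rex1-silent cell. Its lowest, median and highest level in Rex1-high cells was 0, 159 and 498 CPM, and H09 was the 1 Rex1-high cell without it. Against a floor of 3 counts over the 19 Rex1-silent cells it was at least 5239.7-fold higher in the summed counts (edgeR adjusted p = 9.63e-05). Reads of near-identical ribosomal copies may be shared between genes. Its promoter window in RefSeq (GRCm38.p6, chr16:10169978-10170277, plus strand) is given for its 17 CpG dinucleotides, which are in capitals, as against 11 in the window of Zfp42.
Rpl39l: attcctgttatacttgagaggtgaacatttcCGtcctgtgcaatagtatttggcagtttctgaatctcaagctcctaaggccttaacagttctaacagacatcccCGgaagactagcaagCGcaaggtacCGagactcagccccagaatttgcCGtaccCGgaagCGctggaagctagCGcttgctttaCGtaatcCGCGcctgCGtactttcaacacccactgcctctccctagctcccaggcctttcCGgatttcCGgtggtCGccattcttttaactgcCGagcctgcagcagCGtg
Mylpf, which encodes a light chain of fast muscle myosin and was likewise named after its values were seen, had 0, 356 and 1408 CPM in Rex1-high cells, against 0, 0 and 39.7 CPM in Rex1-silent cells (log2 fold change 6.64 ± 1.47, edgeR adjusted p = 0.0232).

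Polycomb repressive complex 2 places the repressive mark on histone H3 lysine 27, and 2 of its 10 measured members rose and none fell. Mtf2, the subunit that steers the complex to unmethylated CpG islands, had 371, 1345 and 2579 CPM in Rex1-high cells, against 61.8, 321 and 1028 CPM in Rex1-silent cells. The ranges overlapped, with 7 of 12 Rex1-high cells above every Rex1-silent cell (log2 fold change 1.93 ± 0.32, edgeR adjusted p = 0.00228). Without the cells low in chromosome 14 its fold change was 1.93 ± 0.36 (adjusted p = 0.0447). Eed, the core subunit that reads the mark, had 432, 1036 and 3019 CPM in Rex1-high cells, against 162, 423 and 884 CPM in Rex1-silent cells (1.18 ± 0.26, adjusted p = 0.0234), and without the cells low in chromosome 14 it did not pass (1.29, adjusted p = 0.0810). Jarid2, a cofactor of the complex, had 1.95 ± 0.51 (adjusted p = 0.0645) and passed without H09 (adjusted p = 0.0203). It did not pass without the cells low in chromosome 14 but with H09 kept (adjusted p = 0.191). Ezh2, the enzyme itself, had 0.22 ± 0.31 and Suz12 0.67 ± 0.51, and neither passed. The histone-binding subunits Rbbp4 and Rbbp7 had negative values that did not pass, -0.29 ± 0.45 and -0.62 ± 0.30. The median over the 10 members was 0.92, beside -0.03 over all genes tested, of which 0.225% were called higher.

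Rif1, Ncoa3 and Set, all linked to chromatin or transcription and seen in nearly every compared cell, were higher as well, while the chromatin reader Psip1, described among the lower genes, was lower. Rif1, which sets replication timing and guards chromosome ends, had 742, 1986 and 3216 CPM in Rex1-high cells, against 218, 681 and 2145 CPM in Rex1-silent cells (1.33 ± 0.32, edgeR adjusted p = 0.0373). Ncoa3, a coactivator that works with nuclear receptors such as Esrrb, had 113, 285 and 838 CPM in Rex1-high cells, against 0, 54.3 and 203 CPM in Rex1-silent cells (2.26 ± 0.52, adjusted p = 0.0289). The histone chaperone gene Set differed by 0.81 ± 0.19 (adjusted p = 0.0343), with 4 of 12 Rex1-high cells above every Rex1-silent cell. Of genes that supply energy, Slc25a5, the mitochondrial exchanger of ADP and ATP, differed by 0.73 ± 0.17 (adjusted p = 0.0373), and Atp5g1, a subunit of the ATP synthase ring, by 1.43 ± 0.32 (adjusted p = 0.0234). The list of nuclear oxidative phosphorylation genes does not hold Slc25a5 or Atp5g1. It had 0 of 28 called in either direction by edgeR or limma, with a median of 0.29. An unadjusted edgeR p under 0.05 was found for 3 of the 28, beside 693 of all 8444 genes. Mreg, which acts in the transport of melanosomes and other organelles, had 0, 224 and 548 CPM in Rex1-high cells, against 0, 0.343 and 75.8 CPM in Rex1-silent cells (5.46 ± 1.19, adjusted p = 0.0219).

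A cluster of KRAB zinc finger genes on chromosome 4, a family whose members bind and silence transposons, held 4 of the 19 higher genes. Zfp981 had 9.91, 144 and 468 CPM in Rex1-high cells, against 0, 2.78 and 42.1 CPM in Rex1-silent cells (log2 fold change 4.63 ± 0.94, edgeR adjusted p = 0.0142). Zfp990 had 147, 666 and 991 CPM in Rex1-high cells, against 12.6, 144 and 407 CPM in Rex1-silent cells (2.10 ± 0.44, adjusted p = 0.0153). The pseudogene Gm13230 and the long noncoding RNA Platr16 overlap each other on the same strand and had 3.77 ± 0.79 and 4.22 ± 0.89. From Platr16 to Zfp981 (GRCm38, 4:145410245-146539395) 12 of 43 genes in the table were tested, and all 12 had a positive fold change with a median of 2.23. This span was drawn from the 4 calls, so their sign was fixed in advance and the median includes them. The other genes tested in it ran from 1.29 (Zfp986) to 4.16 (Zfp600), and edgeR called none of them. Of the 12, limma called 6. The zinc finger genes and pseudogenes here belong to 1 family, and the way the authors' counting treated reads that fit several copies is not given in the sources used here. Their values may therefore share reads, which was not tested. The other 2 higher genes were Gm14412 and an identifier without a symbol, ENSMUSG00000086967.

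**Figure D2:**
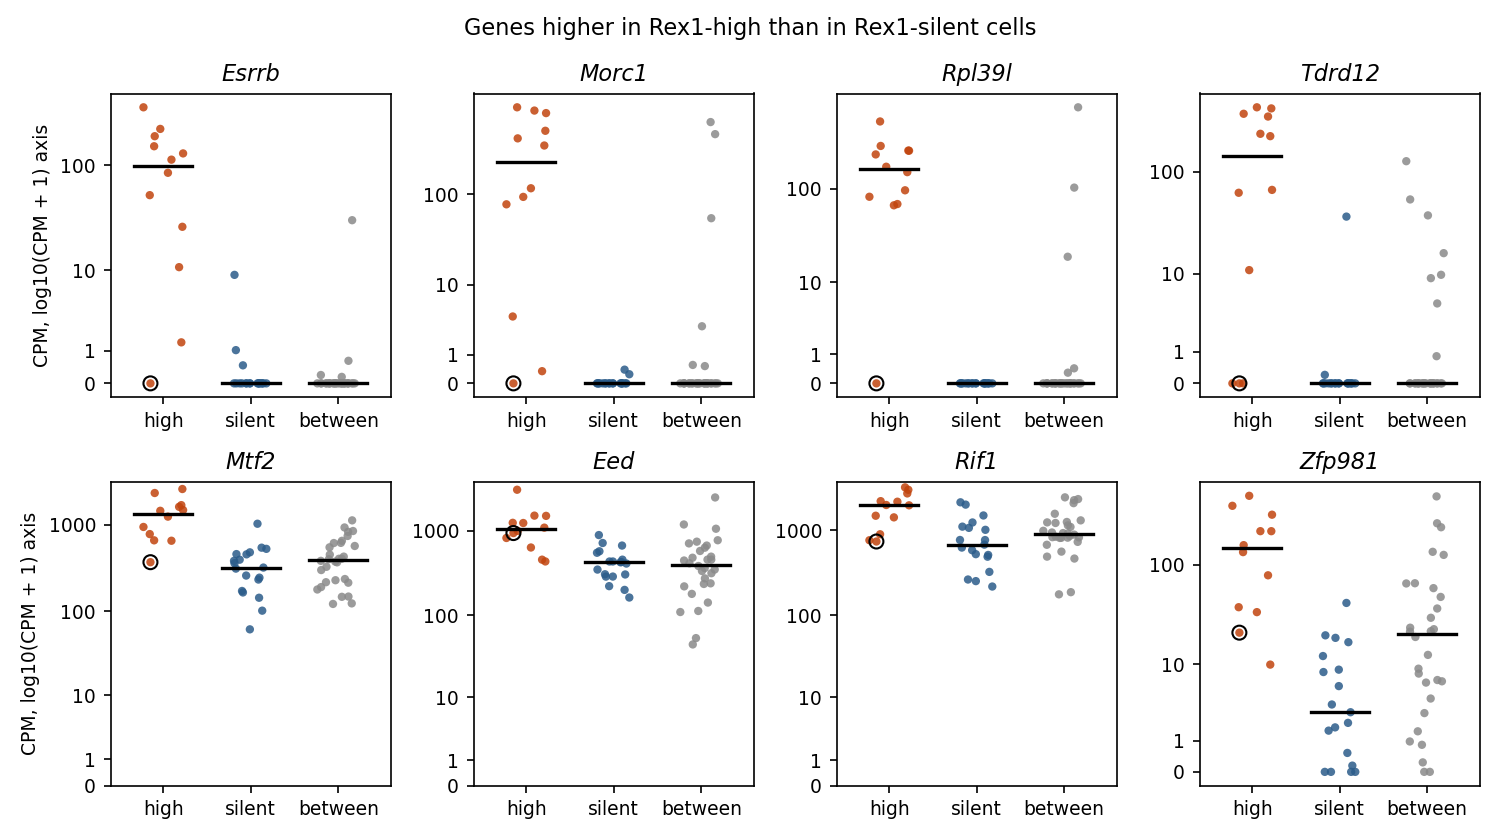
Levels of 8 genes called higher, in CPM on a log10(CPM + 1) axis, for 12 Rex1-high, 19 Rex1-silent and 30 cells between. Each point is 1 cell, bars are medians and the ring marks H09; Rpl39l had 0 counts in all 19 Rex1-silent cells, while Mtf2 was present in every cell with medians of 1345 CPM in Rex1-high and 321 CPM in Rex1-silent cells.

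Genes of general pluripotency and of DNA methylation were mostly not called. Pou5f1 had 498, 1184 and 2366 CPM in Rex1-high cells, against 74.1, 1002 and 2013.6 CPM in Rex1-silent cells (log2 fold change 0.295 ± 0.31, edgeR adjusted p = 0.958). Sox2, its partner, had a median of 94.4 CPM in Rex1-high cells and 9.53 CPM in Rex1-silent cells (1.95 ± 1.09, adjusted p = 0.720). Rif1 was the 1 of 15 general pluripotency genes called, with a list median of 0.30.

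Of 18 measured genes that write, read or erase DNA methylation, 0 were called by edgeR in either direction (4 at an unadjusted p under 0.05), and limma called 4 higher. Over all 8444 genes tested, 693 had an unadjusted edgeR p under 0.05, and limma called 1.75% higher. Tet1, which oxidises methylated cytosine, had 37.8, 706 and 1924 CPM in Rex1-high cells, against 0, 72.3 and 565 CPM in Rex1-silent cells. Its log2 fold change of 2.84 ± 0.84 did not pass in edgeR (adjusted p = 0.137) and did in limma (adjusted p = 0.0126); H09 held the lowest of the 12 values. Tet2 was detected in 11 of 12 Rex1-high and 4 of 19 Rex1-silent cells (3.51 ± 1.59, edgeR adjusted p = 0.550; limma adjusted p = 0.000606). The methyltransferase genes gave -0.17 ± 0.86 for Dnmt1, -0.23 ± 1.12 for Dnmt3a and -0.53 ± 0.85 for Dnmt3b, values smaller than their errors. Their cofactor Dnmt3l had 2.29 ± 1.56 (edgeR adjusted p = 0.826; limma adjusted p = 0.0235).

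Among genes lower in Rex1-high cells, 36 of the 40 had a median of 0 in Rex1-high cells, and 12 had 0 counts in all 12 of these cells. A gene that Rex1-high cells lacked could enter the test only through at least 10 of the 19 Rex1-silent cells, so its presence in most Rex1-silent cells was fixed by the filter. Against a floor of 3 counts over the 12 cells, those 12 genes were at least 468- to 2054-fold lower in summed counts. The fitted fold changes of these genes depend on a prior count, so levels are printed in their place where Rex1-high cells were at 0.

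Of 10 measured members of a list of 14 keratin and epithelial junction genes, Krt8 and Dsp were lower and none was higher. Over all genes tested 0.474% were called lower. The median log2 fold change of the 10 members was -3.14, beside -0.03 over all genes tested. Members seen in few or no Rex1-high cells, such as Krt18 and Dsp, passed the filter through the Rex1-silent cells. The sign of this median was thus partly set by the filter. Krt8, a keratin of simple epithelia, had 0, 0.454 and 68.4 CPM in Rex1-high cells, against 0, 101.3 and 6589.5 CPM in Rex1-silent cells. H09 held the highest of the Rex1-high values (log2 fold change -7.63 ± 1.74, edgeR adjusted p = 0.0279). Dsp, the desmoplakin that ties keratin filaments to desmosomes, had 0 counts in all 12 Rex1-high cells, against 0, 23.01 and 736 CPM in Rex1-silent cells, 14 of 19 of which held it. It was at least 2054-fold lower in summed counts (adjusted p = 0.0152). Krt18, the partner of Krt8, had -5.73 ± 1.70 (adjusted p = 0.143) and passed without H09 (adjusted p = 0.0012), when 2 of 11 Rex1-high cells held a count of it. The tight junction claudin Cldn7 did likewise, with an adjusted p of 0.180 and, without H09, 0.0452. Without the cells low in chromosome 14, but with H09 kept, none of the 4 passed (adjusted p = 0.190 for Krt8, 0.0817 for Dsp, 0.572 for Krt18 and 0.581 for Cldn7).

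Of the other lower genes, 5 with a role at the cell surface or in secretion are described here, picked after their values were seen. Prtg, a receptor of the immunoglobulin family that marks the early epiblast and its derivatives, had 0, 21.9 and 287 CPM in Rex1-high cells, against 183, 538 and 2227 CPM in Rex1-silent cells. H09 had the 287 CPM, and 17 of 19 Rex1-silent cells lay above it (-3.42 ± 0.83, edgeR adjusted p = 0.0413). Prom1 (CD133), a membrane protein of protrusions, had 0 counts in all 12 Rex1-high cells, against 0, 60.6 and 488 CPM in Rex1-silent cells (at least 1733-fold lower, adjusted p = 0.00606). Wls, which carries Wnt ligands to the cell surface, had at most 10.3 CPM in Rex1-high cells, against a median of 89.2 and a highest value of 1372 CPM in Rex1-silent cells (adjusted p = 0.00854). The insulin-like growth factor receptor gene Igf1r was detected in 2 of 12 Rex1-high and 14 of 19 Rex1-silent cells (adjusted p = 0.0158), and the collagen receptor gene Ddr1 in 1 of 12 and 16 of 19 (adjusted p = 0.0279).

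Fgf8, a growth factor of the primitive streak, was the 1 call among 4 measured members of a list of 15 streak and mesendoderm genes. Of all genes tested 0.474% were called lower. Fgf8 was seen in 3 of 12 Rex1-high cells, at up to 1.38 CPM, and in 11 of 19 Rex1-silent cells, at up to 662 CPM (edgeR adjusted p = 0.0232). T, the brachyury gene, was seen in 3 of 12 Rex1-high and 17 of 19 Rex1-silent cells, with a highest value of 60.1 CPM in Rex1-high cells (H09) and 806 CPM in Rex1-silent cells (adjusted p = 0.209). Without H09 T was called lower (adjusted p = 0.00235). Without the cells low in chromosome 14, but with H09 kept, T was not called (adjusted p = 0.574). Summed over the 15 genes, Rex1-high cells held 0, 3.31 and 351 CPM, against 1.97, 362 and 1791 CPM in Rex1-silent cells. The 351 CPM was H09, and the other 11 Rex1-high cells held at most 132 CPM. Other calls with a role in transcription or in growth signalling, named after their values were seen, were Sp8, a transcription factor, Vgll4, a cofactor of the Hippo pathway's TEAD factors, Amot, an adaptor of the same pathway, and Yaf2, a subunit of variant Polycomb complexes. All of these had 0 counts in all 12 Rex1-high cells.

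Genes of antigen processing that interferon induces were called at 1 locus. Psmb8, a subunit of the immunoproteasome, had 0, 0 and 33.25 CPM in Rex1-high cells, against 0, 97.7 and 630.3 CPM in Rex1-silent cells, with 17 of 19 Rex1-silent cells holding it (log2 fold change -5.85 ± 1.44, edgeR adjusted p = 0.0431). Its neighbour Tap2, a subunit of the transporter that brings peptides to class I antigens, was seen in 1 of 12 and 12 of 19 cells (adjusted p = 0.0115). Gm20496, an antisense RNA that overlaps both on chromosome 17 (GRCm38, 17:34199316-34205449), was called too (adjusted p = 0.00537). Whether counting used strand is not given in the sources used here. Reads in the stretches where Gm20496 overlaps Psmb8 or Tap2 cannot be told apart, and Psmb8 and Tap2 do not overlap each other.

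These 2 were the calls among 12 measured members of a list of 20, beside 0.474% of all genes called lower. The list's median log2 fold change was -2.94, beside -0.03 over all genes tested. Most of the 12 were seen in few Rex1-high cells and passed the filter through the Rex1-silent cells, so their common sign was partly set by it. Summed over the list, Rex1-high cells held 0, 84.4 and 1536 CPM, against 66.1, 1422 and 2827 CPM in Rex1-silent cells. The 1536 CPM was H09, and the other 11 Rex1-high cells held at most 295 CPM. Without H09, 8 of 12 members were called lower, beside 1.53% of all 8308 genes tested then. This added Gbp2, Gbp3, Gbp7 and Irgm1, GTPases induced by interferon, the peptide-trimming enzyme gene Erap1 and the class I antigen gene H2-K1. In that comparison Gbp2 was seen in 1 of 11 Rex1-high cells, at 0.336 CPM, against a median of 178 CPM in Rex1-silent cells (adjusted p = 0.000536). Without the cells low in chromosome 14, but with H09 kept, none of the 8 passed. Psmb8 then had an adjusted p of 0.243, Tap2 0.124 and Gbp2 0.968, with a log2 fold change of -2.69 for Gbp2. The 2 comparisons left out different cells.

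Tmem63b, a channel that opens when the membrane is stretched, had 0, 1.07 and 45.98 CPM in Rex1-high cells, against 0.969, 233 and 783 CPM in Rex1-silent cells (-5.27 ± 1.11, edgeR adjusted p = 0.0158). The antisense RNA Gm16172 lies across it and was called as well, and the pair cannot be told apart without strand. Iqsec1, an exchange factor for Arf GTPases, was seen in 3 of 12 Rex1-high and 18 of 19 Rex1-silent cells (adjusted p = 0.0279), and the noncoding Gm17077 in 3 of 12 and 18 of 19 (adjusted p = 0.00931). Psip1, the chromatin reader LEDGF, was the 1 lower gene that all compared cells expressed: it had 41.3, 199.5 and 427 CPM in Rex1-high cells, against 155, 339 and 798 CPM in Rex1-silent cells (-1.20 ± 0.27, adjusted p = 0.0267). Overlapping genes touched 26 of the 59 calls. The 17 measured genes of glycolysis, the 36 of G2 and mitosis and the 32 of S phase had 0 calls in edgeR in either direction, with medians of -0.02, 0.64 and 0.07. At an unadjusted p under 0.05 these lists held 0, 2 and 4 genes, and limma called 0, 1 and 1. Over all 8444 genes tested, 693 had an unadjusted edgeR p under 0.05, and limma called 1.75% higher and 2.06% lower.

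**Figure D3:**
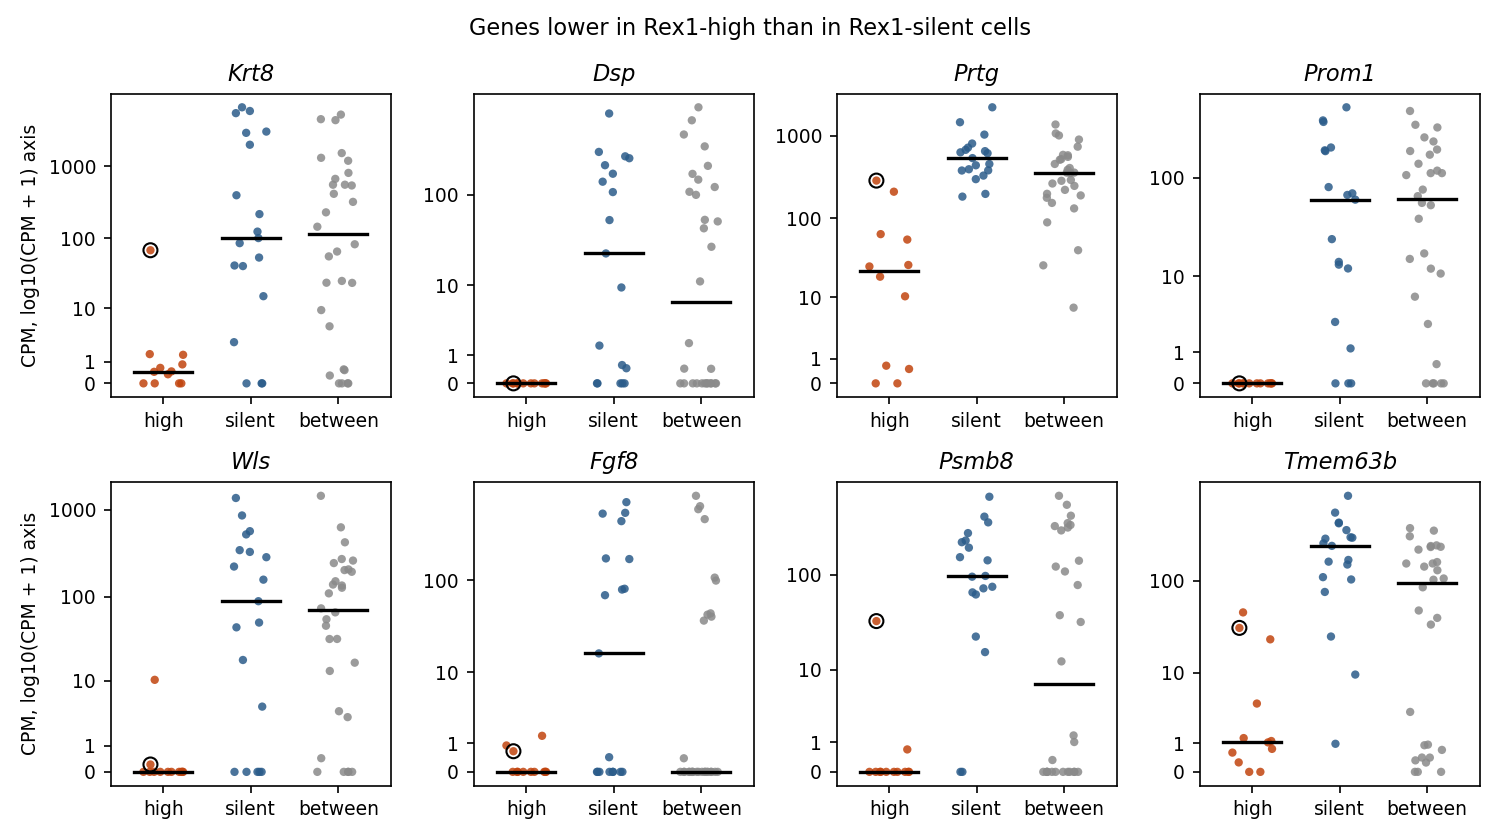
Levels of 8 genes called lower, in CPM on a log10(CPM + 1) axis, for 12 Rex1-high, 19 Rex1-silent and 30 cells between. Each point is 1 cell, bars are medians and the ring marks H09; Dsp and Prom1 had 0 counts in all 12 Rex1-high cells, and H09 held the highest Rex1-high value of Krt8 (68.4 CPM) and Prtg (287 CPM).

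The lists for 4 signalling pathways, which do not hold Fgf8, Wls or Igf1r, gave no calls in edgeR with all 12 Rex1-high cells. Over all 8444 genes tested, 693 had an unadjusted edgeR p under 0.05, and limma called 1.75% higher and 2.06% lower. Of 16 measured FGF and ERK genes 0 were called (6 at an unadjusted p under 0.05, limma 1 higher and 3 lower), and Fgf4, the ligand made by naive cells, had a log2 fold change of 9.85 ± 2.51 (adjusted p = 0.0578), passing without H09 (adjusted p = 0.0219). Of 13 Nodal and BMP genes 0 were called with all cells (3 at an unadjusted p under 0.05, limma 2 lower) and 2 lower without H09. Among these 2 was the Nodal inhibitor Lefty1 (adjusted p = 0.0138, and 0.740 without the cells low in chromosome 14 but with H09 kept). Of 10 Wnt pathway and 12 LIF and STAT3 genes 0 were called by edgeR with or without H09 (1 and 1 at an unadjusted p under 0.05), and limma called 0. Among 9 measured genes of formative and primed pluripotency edgeR called 0 (3 at an unadjusted p under 0.05) and limma 2 lower, and the median was -0.53.

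Defining markers of other kinds of cell that a culture could hold were at 0 in both classes or seen in some of the cells. The endoderm markers Gata4 and Sox17 were at 0 in all 12 Rex1-high and all 19 Rex1-silent cells, as were the trophoblast marker Elf5 and the neural marker Sox1. Other members of these lists were present: the endoderm gene Dab2 was seen in 2 of 12 Rex1-high and 8 of 19 Rex1-silent cells, and Sox7 in 1 Rex1-high cell, at 80.5 CPM. The neural genes Pax6, Tubb3 and Map2 were seen in 6, 7 and 5 of 12 Rex1-high and in 6, 4 and 8 of 19 Rex1-silent cells. Nes and Hes1, the 2 tested neural genes, were seen in 3 and 2 of 12 Rex1-high and 18 and 17 of 19 Rex1-silent cells. Both had an unadjusted edgeR p under 0.05, and limma called both lower, with a median log2 fold change of -3.75. Over all 8444 genes tested, 693 had such a p, and limma called 2.06% lower. Nes and Hes1 passed the filter through the Rex1-silent cells, so their sign was partly set by it. Summed over 12 neural genes, Rex1-high cells held 0, 38.2 and 202 CPM, against 0.303, 81.4 and 434 CPM in Rex1-silent cells. The transcription factor genes Eomes and Gata3, made in trophoblast among other places, were seen in 1 and 2 of 12 Rex1-high cells and in 9 and 9 of 19 Rex1-silent cells. Summed over 10 trophoblast genes, Rex1-high cells held 0, 8.07 and 339 CPM, against 0, 49.1 and 316 CPM in Rex1-silent cells, and over 17 primitive endoderm genes 42.7, 204 and 459 CPM, against 96.3, 301 and 971 CPM. The ranges of both sums overlapped widely. Summed over 13 fibroblast genes, Rex1-high cells held 0, 133 and 917 CPM, against 0, 261 and 4303 CPM in Rex1-silent cells. The 917 CPM was H09, and the other 11 Rex1-high cells held at most 404 CPM. Tagln, an actin-linked gene, was seen in 4 of 12 Rex1-high and 17 of 19 Rex1-silent cells. It reached 3251 CPM in Rex1-silent cells. H09 held 875 CPM of Tagln, and the other 11 Rex1-high cells held at most 7.81 CPM. The defining fibroblast genes Col1a1, Col1a2 and Col3a1 were at 0 in all 12 Rex1-high cells. These were seen in 4, 3 and 1 of 19 Rex1-silent cells. Vim, which many cell types make, was seen in 10 of 12 and 12 of 19 cells, and Fbln1 in 3 of 12 and 6 of 19. The part of other cell types in the results was not tested further.

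**Figure D4:**
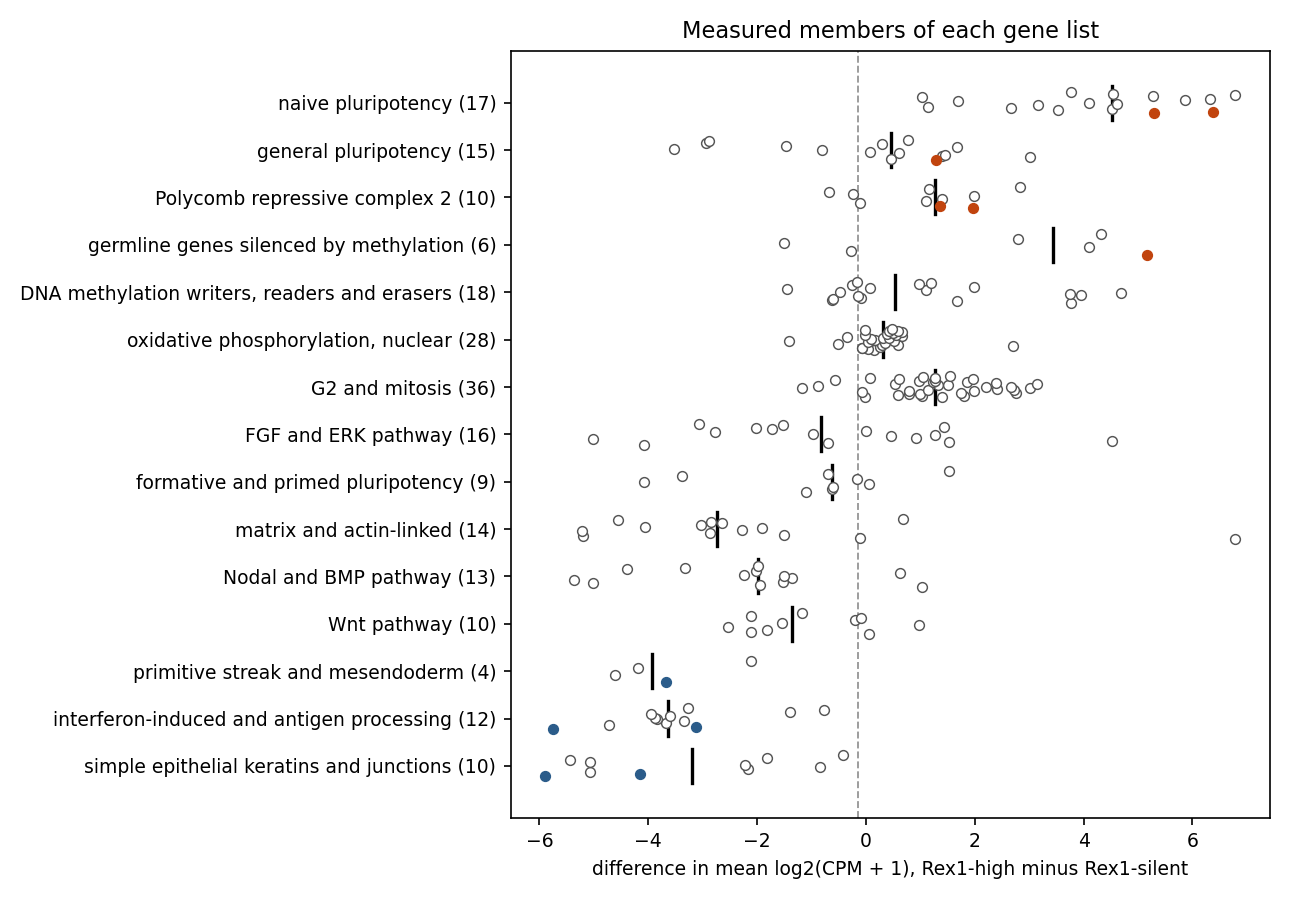
Difference in mean log2(CPM + 1), Rex1-high minus Rex1-silent, for the measured members of 15 gene lists, with their number in parentheses. Each circle is a gene, filled where edgeR called it higher (orange) or lower (blue), vertical bars are list medians and the dashed line is the median of all 8444 genes (-0.15). The members shown are those that passed the filter on counts, so a list's side of 0 was partly set by the class in which its genes were seen.

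The cells between the limits lay nearer to the Rex1-silent than to the Rex1-high cells. On the mean log2(CPM + 1) scale their mean was nearer to the Rex1-silent mean for all 19 higher genes and for 36 of 40 lower genes, a description with no test. Cell by cell, a Rex1-high cell exceeded every Rex1-silent cell in 2 to 17 of the 19 higher genes, with a median of 13.5. A cell between did so in 0 to 14, with a median of 1, and F01, which had 68.1 CPM of Zfp42, was the cell with 14. The number of lower genes with at least 1 count was 3 to 14 in Rex1-high cells, 17 to 37 in Rex1-silent cells and 5 to 34 in cells between. H09 was the Rex1-high cell with 14 lower genes and with 2 higher genes above the Rex1-silent cells, and without it the Rex1-high cells ran from 8 to 17 higher genes and from 3 to 8 lower genes. The genes counted here were chosen on the Rex1-high and Rex1-silent cells, so only the cells between were not used in choosing them.

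**Figure D5:**
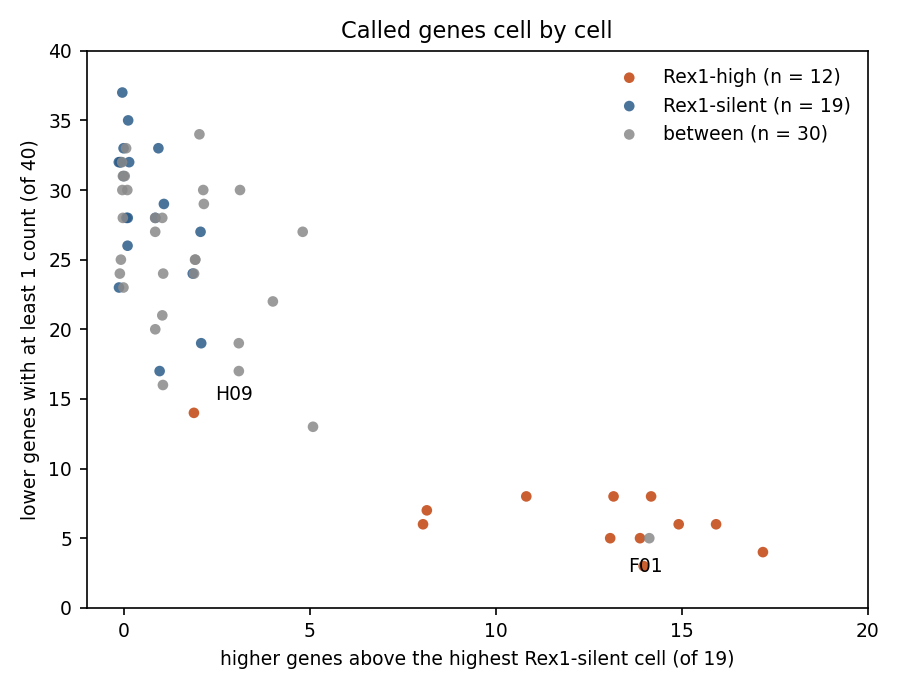
For each cell, the number of the 19 higher genes whose CPM exceeded that of every Rex1-silent cell (horizontal, spread slightly sideways) and the number of the 40 lower genes with at least 1 count (vertical). The Rex1-high cells lie at 3 to 14 lower genes and the Rex1-silent cells at 17 to 37; H09 (Rex1-high) lies beside the Rex1-silent cells and F01 (between) lies among the Rex1-high cells.

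H09 and F01 each held only some of the naive genes. H09 held 9374 CPM of Dppa5a and 384 CPM of Nanog, both above the median of the Rex1-high cells, and 0 counts of Esrrb, Morc1, Rpl39l and Tdrd12. F01 held 433 CPM of Morc1, 697 CPM of Rpl39l and 30.7 CPM of Esrrb, and 0 counts of Nanog; like 4 of the Rex1-high cells, it was low in chromosome 14.

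Within the 12 Rex1-high cells, 0 of 3314 genes had a slope on log2 Zfp42 by edgeR, with 137 at an unadjusted p under 0.05. DESeq2 called 90 slopes and limma 3 on the same genes. Zfp42's own neighbours were too sparse to be tested: Triml2, which lies beside it on chromosome 8, was detected in 8 of 12 Rex1-high and 3 of 19 Rex1-silent cells, and Triml1 in 7 of 12 and 2 of 19. Of the other genes within 500 kb, none had a count in any of the 61 cells.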

How the data were processed

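Raw counts per gene were deposited by the authors for 61 serum/LIF cells. The build GRCm38 and the tools bedtools 2.19.1, SAMtools 0.1.18, GSNAP 2014-02-28 and DESeq2 are named in the submitters' processing notes. How reads were assigned to genes, with which annotation and strand setting, is not given in the sources used here. Cells held 2417702 to 6787261 counts, and the floor of 3 counts covers counting error only. The 95 spike-in rows were left out of totals and tests, and a deposited normalized table was not used. The members and gene lists were chosen with earlier results of these data known. A gene was tested where 10 or more of the 31 compared cells had 10 or more counts, with edgeR 4.0.16 (quasi-likelihood, TMM, share of genes detected as covariate); limma 3.58.1, with a pseudocount of 1 CPM, and DESeq2 1.42.0 were alternatives, in R 4.3.3. SE is the size of the log2 fold change over the square root of the quasi-likelihood F, an approximation. Genes were named where edgeR and limma both called them with the same sign and at least 20 compared cells held counts, up to 12 a direction. Members of the lists were named too, and others are said to be named after their values were seen. Per-cell measures had permutation tests with 100000 resamples. The procedures were tested on simulated data. Some genes are not reported here.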

Additional observations from a re-analysis of the deposited data

How the results depend on the processing

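Counts of genes higher and lower, 19 and 40 as reported, were 19 and 43 with DESeq2's size factors, 27 and 46 with no covariate and 24 and 37 with cells thinned to 1 depth. They were 68 and 153 with DESeq2, 148 and 174 with limma, 1433 and 1801 with no filter, 126 and 266 with 10 counts in 5 cells, and 198 and 357 with a mean of 5 CPM. A limit of 50 CPM gave 9 and 5. A limit of 200 CPM left out H09 only and gave 40 and 127, the same fit as the one without H09 below. Removing cells gave 1 and 1 without those low in chromosome 14, 11 and 30 without the 2 of lowest quality, and 0 and 0 without either (chosen after seeing the data; 467 of 7792 genes at an unadjusted p under 0.05). Plate rows A to D gave 2 and 13, and rows E to H 0 and 0 (131 of 3678 at an unadjusted p under 0.05). Leaving out 1 cell at a time, also chosen after seeing the data, gave 8 to 40 higher and 22 to 127 lower genes: 8 and 22 without C05, 40 and 127 without H09, 11 and 32 without B05, 11 and 40 without C02, 12 and 40 without C07, 10 and 30 without F06, 14 and 26 without G09. The cause of these shifts was not tested. Within Rex1-high cells, slopes called were 0 of 3314 with edgeR, 90 with DESeq2 and 3 with limma; no gene passed their filter of 10 cells without the cells low in chromosome 14 or within plate rows. The 19 genes named for counts in at least 20 cells had to be called by limma to be named, so their limma calls were fixed in advance. Of these, 19 were called by DESeq2, 17 with no covariate and 11 without the cell where that gene was highest. Called were 1 without the cells low in chromosome 14, 2 of 15 in rows A to D and 0 of 11 in rows E to H, and 0 changed sign. No paired analysis was possible because the labels carry well positions and no replicate numbers.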

Other observations

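Among gene groups not described above, the 12 measured of 26 imprinted genes had 0 edgeR calls, with 3 at an unadjusted p under 0.05, while limma called Grb10 and Gnas lower. Over all 8444 genes tested, 693 had an unadjusted edgeR p under 0.05, and limma called 2.06% lower. Grb10, an adaptor that restrains growth factor receptors, had 0, 43.96 and 369 CPM in Rex1-high cells, against 133, 293 and 1269.5 CPM in Rex1-silent cells, and was detected in 7 of 12 and 19 of 19 cells (edgeR log2 fold change -2.20 ± 0.99, adjusted p = 0.548; limma adjusted p = 0.00433). Gnas, which encodes a G protein subunit, had 0.296, 99.6 and 285 CPM in Rex1-high cells, against 125, 349 and 1103 CPM in Rex1-silent cells (edgeR adjusted p = 0.233; limma adjusted p = 0.00433). The values of both genes in Rex1-high cells overlapped those of the Rex1-silent cells.

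Of 14 measured genes for matrix and actin-linked proteins, edgeR called 0 (4 at an unadjusted p under 0.05) and limma 1 higher and 4 lower, with a median log2 fold change of -2.06. Over all 8444 genes tested, 693 had an unadjusted edgeR p under 0.05, and limma called 1.75% higher and 2.06% lower. Members seen in few Rex1-high cells, such as Tagln, passed the filter through the Rex1-silent cells, so this median was partly set by the filter. Tpm1, an actin-binding tropomyosin, had 9.47, 89.9 and 1440.1 CPM in Rex1-high cells, against 90.0, 772 and 3346 CPM in Rex1-silent cells (edgeR adjusted p = 0.139, and 0.0012 without H09). H09 held the 1440.1 CPM, and the other 11 Rex1-high cells held at most 432 CPM. Nes and Hes1, the measured neural genes, were called lower by limma but not by edgeR with all cells. Without H09 edgeR called both lower (adjusted p = 0.0281 and 0.0133). Without the cells low in chromosome 14, but with H09 kept, Tpm1, Nes and Hes1 had adjusted p-values of 0.572, 0.860 and 0.660 in edgeR. Fgfr1, a receptor for FGF ligands, was detected in 7 of 12 Rex1-high and 19 of 19 Rex1-silent cells, with medians of 0.339 and 133 CPM (edgeR adjusted p = 0.222; limma adjusted p = 0.000934). Of 13 measured p53 pathway genes and 9 stress and immediate-early genes, edgeR called 0 (1 and 2 at an unadjusted p under 0.05), and limma called Perp and Egr1 lower.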
